A study of Mus musculus with 8 samples.

Results

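Transcript levels of 10 genes of hyaluronan synthesis, binding and breakdown, of versican and of lubricin were followed in stem cells sorted from the white fat of mice, which are fibroblast-like cells able to form adipocytes. The genes were taken by symbol from a given list (Prg4, Has1, Has2, Has3, Cd44, Vcan, Hapln1, Hyal1, Hyal2 and Tnfaip6), and all 10 were among the 17967 symbols measured. The cells had been released from white fat with collagenase and sorted by antibody staining, and their RNA was sequenced in bulk. Every mouse was a wild-type male of strain C57BL/6J fed chow. Neither age nor the antigens of the sort is given in the sources used here. The depots analysed were subcutaneous (SWAT), epididymal (EWAT) and perirenal (NWAT) white fat, and each gave 2 libraries. No treatment or genetic change separates the groups, so the comparison is one of depots. Whether replicates were separate animals is not stated, and a p-value here covers only the spread among these libraries, part of which may be technical.

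Hyaluronan is a long sugar polymer of the extracellular matrix that is made at the plasma membrane by the synthases Has1, Has2 and Has3 from cytosolic UDP-sugars. Versican, a large chondroitin sulfate proteoglycan, binds it through a globular head, link proteins of the Hapln family hold that bond, and TSG-6, the product of Tnfaip6, transfers heavy chains of inter-alpha-inhibitor onto it. CD44 is its main cell-surface receptor, hyaluronidases cut it, and lubricin, the product of Prg4, is a mucin-like glycoprotein known for lubricating joint surfaces. In fat, hyaluronan and versican are part of the loose matrix around progenitors and adipocytes.

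The libraries held 20026413 to 20638724 estimated read counts. The summed level of 10 progenitor markers, among them Pdgfra, Cd34 and Dcn, was 24718 to 46473 CPM (counts per 1000000, scaled by TMM factors). Col1a1 gave 29863 and 26647 CPM of this sum in SWAT and 3760 to 6632 CPM elsewhere. Dcn was highest in EWAT, at 14963 and 15321 CPM, and Pdgfra and Cd34 had their highest mean in NWAT. Markers of other cells were lower: 12 of macrophages and leukocytes summed to at most 41.8 CPM (Cd68 up to 14.7, Ptprc up to 0.854), 5 of adipocytes to at most 8.27 CPM (Plin1 up to 6.38, Adipoq up to 1.02) and 4 of epithelium to at most 0.286 CPM. The 7 endothelial markers summed to 199 to 367 CPM, of which Tek gave 178 to 355 and Pecam1 at most 8.63, and the 4 lymphatic markers to 139 to 246 CPM, of which Pdpn gave 136 to 242 and Lyve1 at most 1.98. The summed level of 12 mesothelial markers was 60.1 and 73.3 CPM in SWAT, 287 and 308 CPM in EWAT and 222 CPM on average in NWAT. Msln and Upk3b, which define mesothelium, reached at most 1.30 and 3.64 CPM. In bulk RNA, fewer cells of a type and less RNA per cell cannot be told apart.

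Tnfaip6 and Has1 were among the most abundant transcripts of these cells, and Has3 and Hapln1 were barely present. Levels of different genes were compared per length, as FPKM (fragments per kilobase of transcript and per 1000000 fragments) rescaled to a sum of 1000000 per library. By the mean of this level over the 6 libraries, Tnfaip6 ranked 60 of 17967 symbols, Has1 207, Vcan 860 and Has2 1442. Cd44 followed at rank 4126, Prg4 at 4390, Hyal2 at 8275 and Hyal1 at 8795, and Has3 and Hapln1 stood at 13141 and 15001. Neighbours in that order were not always apart: the per-length level of Prg4, 3.48 to 125, spanned the whole range of Cd44, 27.6 to 45.3, and those of Hyal2, 8.86 to 14.8, and Hyal1, 8.77 to 10.9, overlapped.

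Lubricin transcripts were highest in SWAT, Has2 was lowest there, Has1 was highest in NWAT, and Tnfaip6 was lowest in SWAT and highest in NWAT. Versican, CD44, the hyaluronidases and Has3 did not pass the test between any depots. A gene was called where the Benjamini-Hochberg adjusted p over all 13694 genes tested was under 0.05 in edgeR's quasi-likelihood test. All 10 members passed the count filter, Hapln1 only through its EWAT libraries, where it was highest. In the joint test over the 3 depots, 5 of 10 members were called (Prg4, Has1, Has2, Hapln1 and Tnfaip6), beside 41.7% of all genes tested. Between SWAT and EWAT 4 members were called, 1 higher and 3 lower in SWAT, beside 36.7% of all genes (18% higher and 18.7% lower). Between SWAT and NWAT 4 were called, 1 higher and 3 lower in SWAT, beside 18.9% of all genes (9.07% higher and 9.83% lower). Between EWAT and NWAT 3 were called, 1 higher and 2 lower in EWAT, beside 27.3% of all genes (13.3% higher and 14% lower). In the joint test and against EWAT the share of members called was near that of all genes, so the count says nothing particular about these genes. The median log2 fold change of the 10 members was -0.31 in SWAT relative to EWAT and -0.28 relative to NWAT, and it was -0.11 in EWAT relative to NWAT, where that of all genes was -0.01, -0.02 and 0.01. These counts depended on single libraries: without EWAT replicate 2 they were 3 in the joint test and 2 between SWAT and EWAT, and without either EWAT library 2 between SWAT and NWAT. Between EWAT and NWAT, edgeR called 0 members without EWAT replicate 1, EWAT replicate 2 or NWAT replicate 2, where 1, 4 and 1 had an unadjusted p under 0.05, and 1 without NWAT replicate 1. Each depot enters 2 of the 3 pairs, so the pairs share libraries and are not independent.

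**Figure D1:**
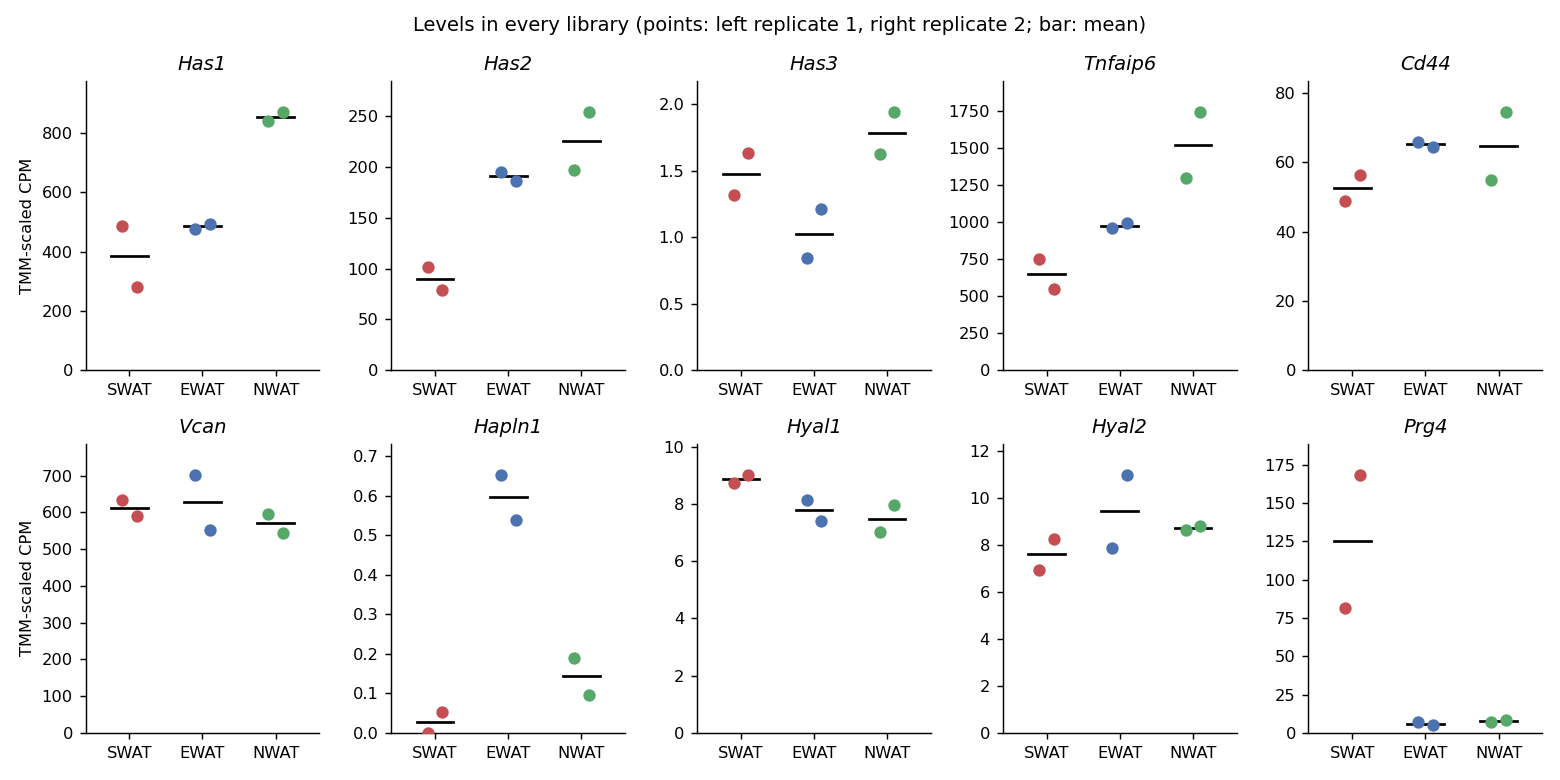
TMM-scaled CPM (vertical axes, from 0, a separate scale per gene) of the 10 genes in each of the 6 libraries, by depot (horizontal axes); points are libraries and bars are depot means. Prg4 was 81.8 and 169 CPM in SWAT and at most 8.35 CPM elsewhere, and the 2 Tnfaip6 values of each depot did not overlap those of any other.

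Among the synthases, Has1 carried most of the transcript in every depot and was set apart in perirenal cells. Has1 stood at 487 and 281 CPM in SWAT, 477 and 495 CPM in EWAT and 840 and 871 CPM in NWAT. Both NWAT libraries lay above the other 4, and 1 SWAT library lay within the EWAT values while the other lay far below them. Has1 was lower in SWAT than in NWAT by a log2 fold change of -1.16 ± 0.21 (SE; edgeR adjusted p = 0.00466) and lower in EWAT than in NWAT by -0.82 ± 0.21 (edgeR adjusted p = 0.0196). Between SWAT and EWAT the value was -0.34 ± 0.21 (edgeR adjusted p = 0.240) and hung on the SWAT library taken, since it was 0.0055 without SWAT replicate 2 and -0.79, and called, without SWAT replicate 1. It was also called, at -0.58, when libraries were scaled by their totals alone (edgeR adjusted p = 0.0388). The call between EWAT and NWAT was lost without any 1 of their 4 libraries and the call between SWAT and NWAT without either EWAT library, with changes of the same direction, and the first also in limma with no filter (adjusted p = 0.0724).

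Has2, the synthase that embryonic development requires, was low in SWAT. It stood at 101 and 79.0 CPM in SWAT, 195 and 187 CPM in EWAT and 197 and 254 CPM in NWAT. Both SWAT libraries lay below all others, and the EWAT and NWAT libraries met at 195 and 197 CPM. Has2 was lower in SWAT than in EWAT by -1.08 ± 0.15 (log2 ± SE; edgeR adjusted p = 2.10e-04) and lower than in NWAT by -1.32 ± 0.15 (edgeR adjusted p = 9.24e-05), and both calls held under every alternative tried. Between EWAT and NWAT the difference of -0.24 ± 0.15 was not called (edgeR adjusted p = 0.249). An antisense gene, Has2os, shares 182 exon bases with Has2 on the other strand, and the strand setting of the counting is not given in the sources used here, so their reads cannot be told apart there. Has2 lies on chromosome 15, at 56665627 to 56694539 on the minus strand of GRCm38, in the GENCODE M21 annotation.

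Has3 had few counts, 24 and 31 counts in SWAT, 18 and 27 in EWAT and 34 and 40 in NWAT. The EWAT values, 0.841 and 1.21 CPM, lay below the others, and SWAT (1.32 and 1.63 CPM) overlapped NWAT (1.62 and 1.94 CPM). Its joint test was not called (edgeR adjusted p = 0.170), and 352 of its exon bases are shared with Chtf8 on the other strand.

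Per length, the share of Has1 in the summed level of the 3 synthases was 89.2% ± 2.11 in the SWAT libraries, 83.8% ± 0.781 in those of EWAT and 88.6% ± 1.58 in those of NWAT (SD, n = 2). Has2 made up most of the rest, 10.7% ± 2.05, 16.1% ± 0.793 and 11.4% ± 1.57 (SD, n = 2), and Has3 at most 0.171% in any library. The level of Has1 was 8.54 ± 1.84 times that of Has2 in SWAT, 5.21 ± 0.305 times in EWAT and 7.87 ± 1.22 times in NWAT (SD, n = 2). The EWAT libraries thus had the lowest share of Has1, 83.3% and 84.4%, and these 2 values did not overlap those of SWAT or NWAT. Summed over the synthases, the level was 653 and 403 in SWAT, 750 and 723 in EWAT and 1286 and 1310 in NWAT. It did not overlap between depots and was highest in NWAT. These shares and sums are descriptions and were not tested.

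The promoters of Has1 and Tnfaip6, the members that were higher in NWAT than in both other depots, are shown because each holds a short motif read by the CREB or AP-1 family of transcription factors. RefSeq promoter windows (GRCm38.p6) were at hand for 7 of the 10 members. Of the 250 bases before the RefSeq start, those before the GENCODE start are printed, chr17:17855206-17855438 on the minus strand for Has1 and chr2:52037863-52038008 on the plus strand for Tnfaip6. Capitals mark the only match to the cAMP response element TGACGTCA in Has1 and to the AP-1 motif TGANTCA in Tnfaip6.
Has1: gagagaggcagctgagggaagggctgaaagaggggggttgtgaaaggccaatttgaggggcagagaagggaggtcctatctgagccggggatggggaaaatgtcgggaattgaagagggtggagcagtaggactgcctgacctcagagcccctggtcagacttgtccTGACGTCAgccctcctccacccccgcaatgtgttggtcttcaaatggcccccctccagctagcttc
Tnfaip6: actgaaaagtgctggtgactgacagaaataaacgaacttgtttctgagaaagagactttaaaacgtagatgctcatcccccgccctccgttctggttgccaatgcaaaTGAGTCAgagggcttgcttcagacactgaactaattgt

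The Has1 match lies 83 to 76 bases before the RefSeq start and the Tnfaip6 match 142 to 136 bases before it. Both strands were searched, and of 32851 mouse promoter windows of 250 bases 1.55% held TGACGTCA and 6.75% held TGANTCA. The CCAAT box, found in 33.8% of windows, was also present in both promoters, and TATAAA, found in 12.4%, in neither. None of these matches overlapped another. A match of letters is a description of the window and not a binding site.

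Transcripts of Gfpt2, Ugdh and Uap1, which code for enzymes that make the UDP-sugars of hyaluronan, were highest in NWAT. Of 10 genes of this supply, all tested, 8 were called in the joint test, beside 41.7% of all genes. None was higher and 5 were lower in EWAT than in NWAT (27.3% of all genes called), none was higher and 3 were lower in SWAT than in NWAT (18.9%), and 2 were higher and 2 lower in SWAT than in EWAT (36.7%). Their median log2 fold change was -0.42 for EWAT against NWAT, -0.24 for SWAT against NWAT and 0.00 for SWAT against EWAT. The lists of pathway genes, like the members, were drawn up with earlier results of these data known, so the counts are descriptions.

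Gfpt2, an isozyme of the rate-limiting step of UDP-N-acetylglucosamine synthesis, stood at 1386 and 1058 CPM in SWAT, 999 and 995 CPM in EWAT and 2019 and 2410 CPM in NWAT. The NWAT libraries lay above all others, by a log2 fold change of 0.86 over SWAT and 1.15 over EWAT (edgeR adjusted p = 0.00170 and 1.63e-04). Ugdh, which makes the glucuronate precursor, stood at 599 and 461 CPM in SWAT, 533 and 535 CPM in EWAT and 852 and 926 CPM in NWAT. It too was highest in both NWAT libraries and lower in SWAT by -0.75 ± 0.14 and in EWAT by -0.74 ± 0.14 (log2 ± SE; edgeR adjusted p = 0.00242 and 0.00199).

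Uap1, which forms UDP-N-acetylglucosamine, stood at 283 and 241 CPM in SWAT, 290 and 292 CPM in EWAT and 382 and 552 CPM in NWAT. It was lower in SWAT by -0.84 ± 0.16 and in EWAT by -0.68 ± 0.16 than in NWAT (edgeR adjusted p = 0.00409 and 0.00979), with the NWAT libraries above the other 4. The second call was lost without NWAT replicate 2 (-0.39), EWAT replicate 1 or EWAT replicate 2 (edgeR adjusted p = 0.109, 0.0640 and 0.0949) and in limma with no filter (adjusted p = 0.0667), and the first without SWAT replicate 2 (edgeR adjusted p = 0.0518). Gnpnat1, an acetyltransferase of the same route, departed from this pattern: its 42.4 to 49.7 CPM in SWAT and 48.7 to 49.0 CPM in NWAT both lay above the 31.5 and 33.9 CPM of EWAT. It was higher in SWAT than in EWAT by 0.49 ± 0.11 and lower in EWAT than in NWAT by -0.58 ± 0.11 (edgeR adjusted p = 0.00460 and 0.00219). The first call was lost with scaling by library totals (0.25, edgeR adjusted p = 0.0697) and without SWAT replicate 1 (0.37, edgeR adjusted p = 0.0670).

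**Figure D2:**
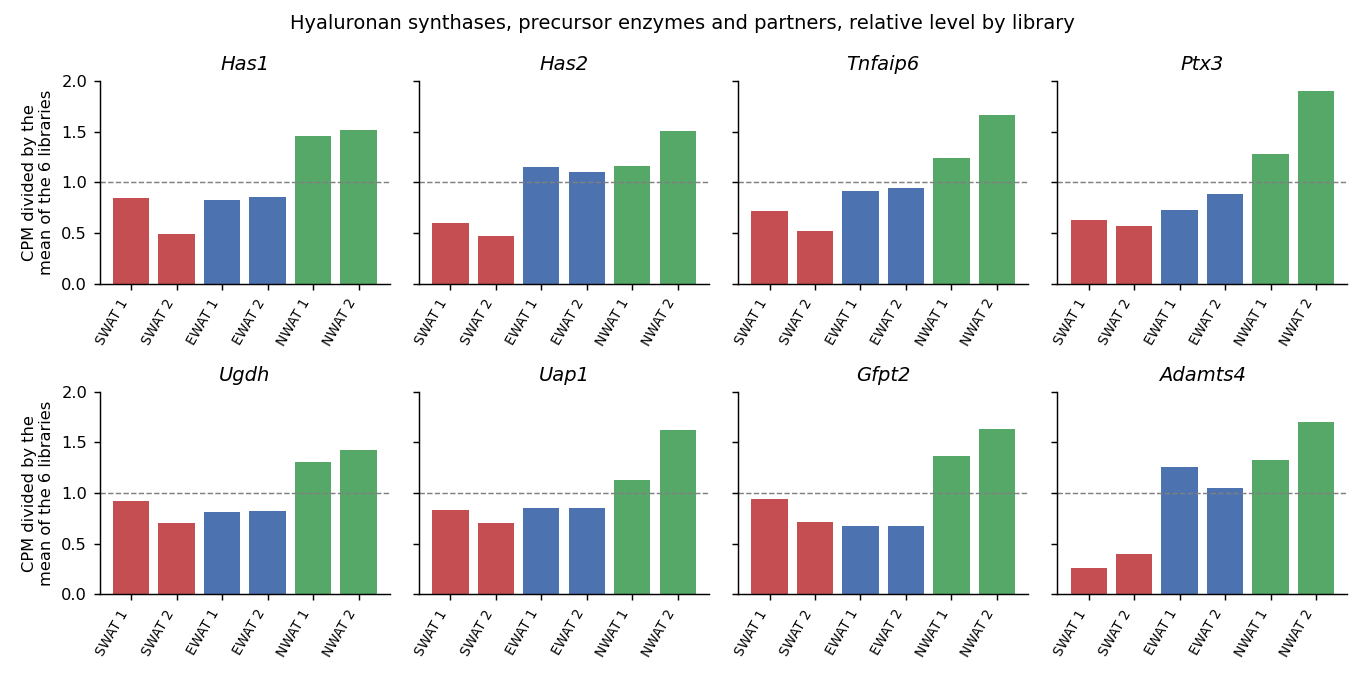
CPM divided by the mean of the 6 libraries (vertical axes, from 0; the dashed line is 1) for Has1, Has2, Tnfaip6 and 5 genes of hyaluronan precursor supply, binding and versican cleavage; each bar is 1 library, in the order SWAT, EWAT, NWAT. Every gene drawn was highest in an NWAT library, and Has2 and Adamts4 were lowest in both SWAT libraries.

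Tnfaip6 differed between every pair of depots and rose from SWAT over EWAT to NWAT. It stood at 749 and 548 CPM in SWAT, 957 and 993 CPM in EWAT and 1295 and 1742 CPM in NWAT, with no overlap between any depots. It was lower in SWAT than in NWAT by -1.23 ± 0.18 (log2 ± SE; edgeR adjusted p = 6.09e-04), a 2.34-fold difference. The steps between were smaller, -0.59 ± 0.17 for SWAT against EWAT (edgeR adjusted p = 0.0225) and -0.64 ± 0.17 for EWAT against NWAT (edgeR adjusted p = 0.0199). The call against EWAT was lost without SWAT replicate 2 (-0.38, edgeR adjusted p = 0.175) and without either EWAT library, and that between EWAT and NWAT without either EWAT library or NWAT replicate 2 (-0.41, edgeR adjusted p = 0.170), and with limma on log2(FPKM + 1) (adjusted p = 0.0519). The call between SWAT and NWAT held with every library left out in turn (adjusted p 5.18e-04 to 0.00583).

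Ptx3, the pentraxin that joins TSG-6 and heavy chains in cross-linking hyaluronan, had the same order of depots. It stood at 354 and 322 CPM in SWAT, 413 and 501 CPM in EWAT and 723 and 1076 CPM in NWAT, with no overlap. Ptx3 was lower than in NWAT by -1.41 ± 0.18 in SWAT and by -0.98 ± 0.18 in EWAT (log2 ± SE; edgeR adjusted p = 3.27e-04 and 0.00249), and its difference between SWAT and EWAT, -0.43 ± 0.18, was not called (edgeR adjusted p = 0.0809), but was called under DESeq2 (adjusted p = 0.0347), with library totals (edgeR adjusted p = 0.0112), in limma on log2(FPKM + 1) (adjusted p = 0.0237) and without either NWAT library. Among the heavy-chain genes, Itih5, chosen here after its values were seen, stood at 915 to 1126 CPM with no call (edgeR adjusted p = 0.833 in the joint test). The heavy chains of serum inter-alpha-inhibitor, from Itih1, Itih2 and Itih3, were at no more than 0.316, 6.65 and 0.899 CPM.

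Transcripts of inflammatory signalling genes and of immediate-early genes also differed among these libraries. Together, 9 cytokine and inflammatory response genes, a list chosen after values were seen, summed to 4754 and 3618 CPM in SWAT, 4923 and 5365 CPM in EWAT and 6287 and 7537 CPM in NWAT. Socs3, Cxcl1 and Ptgs2 gave most of this sum. Nfkbia, Tnfaip3 and Ptgs2 had their lowest mean in EWAT and Lif in NWAT, and the means of the rest had the order of the sum. The sum was lowest in SWAT replicate 2, as were Has1, Has2 and Tnfaip6, and highest in NWAT replicate 2, as were Has1, Has2, Tnfaip6 and Ptx3. The summed level of 12 immediate-early genes, also chosen after values were seen, ran otherwise, at 47863 and 40949 CPM in SWAT and 30847 to 35541 CPM in EWAT and NWAT. Egr1, Fosb, Fos and Jun gave most of it, and these, Jund and Ier2 had their highest mean in SWAT. Nr4a1 went the other way, with 591 and 522 CPM in SWAT against 1478 to 1692 CPM elsewhere, and Btg2 was highest in EWAT. Junb, Atf3, Dusp1 and Zfp36 were not called in the joint test. The part of either set in the differences of the hyaluronan genes was not tested.

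Cd44 was expressed at 48.7 and 56.3 CPM in SWAT, 65.9 and 64.4 CPM in EWAT and 54.8 and 74.5 CPM in NWAT. The SWAT libraries lay below EWAT and overlapped NWAT. The difference from EWAT was -0.31 ± 0.14 (log2 ± SE; edgeR adjusted p = 0.104) and that from NWAT -0.30 ± 0.14 (edgeR adjusted p = 0.172). Scaled by library totals alone, the differences were -0.55 and -0.49 and called. That scaling moved the median of all genes by -0.24 for SWAT against EWAT and by -0.19 for SWAT against NWAT. The difference from EWAT was also called in limma on FPKM, and that from NWAT without NWAT replicate 1 (-0.50). These calls thus depended on the scaling and on 1 library. Of 15 tested receptors and binding proteins other than the members, 6 were called in the joint test, a share near the 41.7% of all genes. In SWAT against EWAT 1 was higher and 2 lower (36.7% of all genes called). The 1 higher was Hapln4, named after its values were seen, at 0.877 and 1.27 CPM in SWAT and at most 0.631 CPM elsewhere. It needed its SWAT libraries, where it was highest, to pass the count filter, so its place in the counts is a description. In SWAT against NWAT 2 were higher and 2 lower (18.9%), and in EWAT against NWAT 3 and 3 (27.3%).

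Layn, a membrane lectin that binds hyaluronan, was lowest in NWAT. It stood at 44.5 and 49.0 CPM in SWAT, 55.2 and 56.7 CPM in EWAT and 23.6 and 24.5 CPM in NWAT, with no overlap, and was higher than in NWAT by 0.96 ± 0.10 in SWAT and 1.22 ± 0.10 in EWAT (log2 ± SE; edgeR adjusted p = 4.67e-05 and 5.39e-06). Stab1, a scavenger receptor of hyaluronan found mainly on endothelium and macrophages, stood at 3.27 and 3.95 CPM in SWAT, 2.70 and 3.04 CPM in EWAT and 5.82 and 6.78 CPM in NWAT. It was lower in SWAT and EWAT than in NWAT by -0.80 ± 0.21 and -1.14 ± 0.21 (edgeR adjusted p = 0.0174 and 0.00177). Lyve1, the lymphatic hyaluronan receptor, named after its values were seen, stayed at or under 1.98 CPM in every library. The Stab1 call between SWAT and NWAT was lost under DESeq2 (adjusted p = 0.0608) and in edgeR without SWAT replicate 2 (-0.67) or NWAT replicate 1 (-0.69). The 7 endothelial markers, mostly Tek, summed to 280 and 243 CPM in SWAT and 234 and 199 CPM in EWAT. In NWAT they summed to 367 and 346 CPM, so the sum had the same order of depots as Stab1. Every endothelial marker other than Tek had its lowest mean in NWAT, such as Cdh5, with 6.56, 4.57 and 3.59 CPM in SWAT, EWAT and NWAT. Of the lymphatic markers, Prox1 (3.20 and 3.54 CPM in NWAT, at most 1.97 CPM elsewhere) and Flt4 were highest in NWAT. Lyve1 and Pdpn were highest in EWAT. Macrophage and leukocyte markers, 12 in all, summed to 40.6 and 41.8 CPM in EWAT, where Stab1 was lowest, and at most 25.8 CPM elsewhere. The part of these cells in the Stab1 difference was not tested.

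Versican counts did not pass the test between any depots. Vcan stood at 634 and 589 CPM in SWAT, 702 and 553 CPM in EWAT and 596 and 545 CPM in NWAT. The 2 EWAT libraries spanned all the SWAT values, and the groups overlapped. No pair was called, with log2 fold changes of -0.04 ± 0.13 in SWAT relative to EWAT, 0.10 ± 0.13 in SWAT relative to NWAT and 0.14 ± 0.13 in EWAT relative to NWAT (SE; edgeR adjusted p = 0.849, 0.667 and 0.482).

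On the authors' FPKM scale, Vcan gave another picture. Its per-length level was 162 and 152 in SWAT, 209 and 194 in EWAT and 177 and 156 in NWAT, so both EWAT libraries lay above the rest. With limma on log2(FPKM + 1), Vcan was lower in SWAT than in EWAT by -0.55 ± 0.09 (adjusted p = 0.00246) and higher in EWAT than in NWAT by 0.40 ± 0.09 (adjusted p = 0.0179). Between the FPKM and count scales the median of 12467 genes moved by -0.22 and 0.04 in these pairs, which leaves -0.34 and 0.36 for Vcan.

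FPKM divides by transcript length, and the length that the authors' tables imply for Vcan was not the same in all libraries. This length, computed from the count, the FPKM and the library total, was 9922 and 10222 bases in SWAT, 9166 and 7322 bases in EWAT and 9662 and 9563 bases in NWAT. EWAT replicate 2 was the shortest, and the other EWAT library was the next. The range was 31.1% of the mean, against a median of 0.628% over 2852 genes with at least 1000 counts in every library, of which 0.245% had a larger one. For Has1, Has2 and Tnfaip6 the range was 0.408%, 0.260% and 0.264%. Which transcripts lay behind these lengths was not tested.

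**Figure D3:**
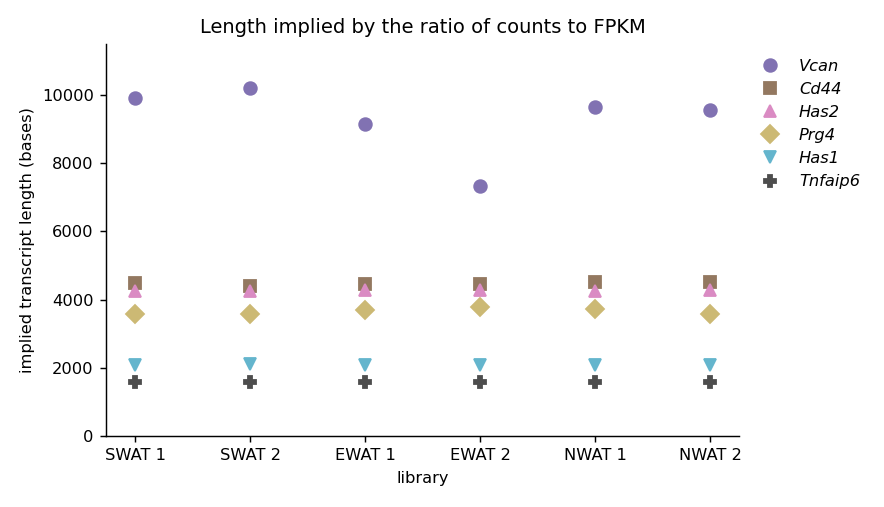
Transcript length in bases (vertical axis, from 0) implied by each library's count, FPKM and library total, for 6 of the genes (symbols) in the 6 libraries (horizontal axis). Vcan ran from 7322 bases in EWAT replicate 2 to 10222 bases in SWAT replicate 2, whereas Has1, Has2 and Tnfaip6 were level.

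Versican has length variants because 2 large exons that carry its chondroitin sulfate chains are spliced in or out. In GENCODE M21 (GRCm38), the gene lies on the minus strand of chromosome 13 at 89655312 to 89742509. Exon 7, of 2880 bases, is at chr13:89702918-89705797, and exon 8, of 5217 bases, at chr13:89688285-89693501. The longest transcript, Vcan-203, of 12427 bases, holds both, Vcan-206, of 8332 bases, holds exon 8 alone, Vcan-202, of 5702 bases, exon 7 alone, and Vcan-201, of 2321 bases, neither. The junctions that tell these apart are given as the last 15 bases of one exon in lower case and the first 15 of the next in capitals.
Exon 6 to 7: cctactgctttaaacCTAAACAGAATATAT
Exon 6 to 8: cctactgctttaaacGTCGATTGAGTGATA
Exon 6 to 9: cctactgctttaaacGACCTGATCTCTGCA
Exon 7 to 8: gagaaaacaagacagGTCGATTGAGTGATA
Exon 7 to 9: gagaaaacaagacagGACCTGATCTCTGCA

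The exon 7 to 8 junction belongs to Vcan-203, the exon 6 to 8 junction to Vcan-206, the exon 7 to 9 junction to Vcan-202 and the exon 6 to 9 junction to Vcan-201, and that of exons 6 and 7 to both Vcan-202 and Vcan-203. The deposited tables give 1 value per gene, so the use of these junctions was not measured.

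Hapln1, the cartilage link protein that stabilises the versican to hyaluronan bond, was almost absent outside EWAT. It had 0 and 1 counts in SWAT, 14 and 12 in EWAT and 4 and 2 in NWAT, with no overlap between depots. The ratio of EWAT to SWAT was 22.1 (exact 95% counting interval 3.64 to 908) and that of EWAT to NWAT 4.12 (1.66 to 12.3), and the ratio of NWAT to SWAT, 5.37, had an interval of 0.651 to 247. Intervals cover counting error only. Hapln1 passed the count filter only through its EWAT libraries, where it was highest, so its calls are given as descriptions. It was called between SWAT and EWAT (edgeR adjusted p = 0.00554) and, narrowly, between EWAT and NWAT (edgeR adjusted p = 0.0462). The second call was lost with any 1 library left out (log2 fold changes of 1.61 to 2.55), under DESeq2 and with no count filter. The first was lost without SWAT replicate 1 (edgeR adjusted p = 0.0618). The summed levels of mesothelial markers (above) and of 6 mural cell markers, 45.7 and 49.4 CPM in EWAT against 9.90 to 22.8 CPM elsewhere, were also highest in EWAT. Wt1 gave the largest part of the first sum (152 and 161 CPM in EWAT) and Myh11 of the second (27.1 and 23.8 CPM). Krt19 and Cspg4 were lowest in EWAT, Cldn15 and Kcnj8 were highest in SWAT, and the rest had their highest mean in EWAT. The part of these cells in the Hapln1 difference was not tested.

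Among the ADAMTS proteases that cut versican, Adamts4 was lower in SWAT than in both other depots, and Adamts15 was highest in EWAT. Of 7 tested, 4 were called in the joint test, beside 41.7% of all genes. None was higher and 3 were lower in SWAT than in EWAT (36.7% of all genes called). None was higher and 3 were lower in SWAT than in NWAT (18.9%), and 1 was higher and 1 lower in EWAT than in NWAT (27.3%). The median log2 fold change was -0.75 for SWAT against EWAT and -0.66 for SWAT against NWAT. The first is the value of Adamts20, which had at most 0.573 CPM in any library and was not called. Of 2 genes named after their values were seen, Adamts8 was also lower in SWAT, at 0.329 and 0.369 CPM against 2.29 to 3.55 CPM elsewhere. The other, Adamts5, stood at 858 to 1251 CPM and was not called in the joint test. Adamts4 stood at 91.6 and 138 CPM in SWAT, 439 and 368 CPM in EWAT and 461 and 594 CPM in NWAT. Both SWAT libraries lay far below the rest, by -1.81 ± 0.20 against EWAT and -2.20 ± 0.20 against NWAT (log2 ± SE; edgeR adjusted p = 9.84e-05 and 5.33e-05).

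Adamts15 was highest in EWAT, at 228 and 229 CPM, against 89.8 and 110 CPM in SWAT and 103 and 91.7 CPM in NWAT. SWAT was lower than EWAT by -1.20 ± 0.12 and EWAT higher than NWAT by 1.23 ± 0.12 (log2 ± SE; edgeR adjusted p = 1.47e-05 and 1.87e-05), and SWAT and NWAT overlapped. Adamts1 stood at 707 and 597 CPM in SWAT, 813 and 749 CPM in EWAT and 1071 and 997 CPM in NWAT, without overlap. It was lower than in NWAT by -0.66 ± 0.13 in SWAT and -0.40 ± 0.12 in EWAT (edgeR adjusted p = 0.00290 and 0.0318), and was not called between SWAT and EWAT. The call between EWAT and NWAT was lost in the limma fits on FPKM (adjusted p = 0.0526 to 0.0767) and in edgeR without EWAT replicate 2, NWAT replicate 1 or NWAT replicate 2 (adjusted p = 0.112, 0.185 and 0.0829), and Adamts1 was called lower in SWAT than in EWAT in those limma fits and with scaling by library totals (-0.50).

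Genes that build and sulfate chondroitin chains, such as those of versican, were called in 12 of 20 tested in the joint test, beside 41.7% of all genes. Against EWAT 6 were higher and 3 lower in SWAT (36.7% of all genes called). Against NWAT 4 were higher and none lower in SWAT, a share near the 18.9% of all genes. In EWAT against NWAT 4 were higher and 5 lower (27.3%). Chst11, which sulfates the chain at the C4 position, stood at 19.8 and 26.6 CPM in SWAT, 1.35 and 1.48 CPM in EWAT and 5.06 and 6.60 CPM in NWAT. Its levels did not overlap, with SWAT higher than EWAT by 4.03 ± 0.22 and than NWAT by 1.99 ± 0.18 (log2 ± SE; edgeR adjusted p = 8.32e-08 and 1.49e-05). Chst15, which adds a further sulfate to 4-sulfated units, ran the other way, with 92.0 and 78.0 CPM in EWAT against 29.0 to 40.1 CPM in the other depots, and was lower in SWAT than in EWAT by -1.38 ± 0.13 (edgeR adjusted p = 1.02e-05). Xylt1, which starts the chain, and Chst7 were lowest in EWAT, at means of 4.42 and 2.74 CPM against 11.4 and 5.61 CPM in SWAT and 8.56 and 7.33 CPM in NWAT. Both were called in SWAT against EWAT (edgeR adjusted p = 4.71e-04 and 0.00276) and in EWAT against NWAT (0.00688 and 3.40e-04), and the last call of Xylt1 was lost without NWAT replicate 1 (edgeR adjusted p = 0.0628).

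Of 6 matrix partners of versican, 4 were called in the joint test, beside 41.7% of all genes. Fbln2, a fibulin, stood at 1449 and 1407 CPM in EWAT against 913 and 917 CPM in SWAT and 1022 and 1014 CPM in NWAT, and the EWAT libraries were the highest (log2 -0.64 ± 0.11 for SWAT against EWAT; edgeR adjusted p = 9.51e-04). Eln, which codes for elastin, was lowest in NWAT, at 539 and 499.8 CPM against 829 and 919 CPM in SWAT and 772 and 798 CPM in EWAT (log2 0.75 ± 0.12 for SWAT against NWAT; edgeR adjusted p = 7.83e-04). Fbn1, which codes for fibrillin-1, stood at 5737 and 4918 CPM in SWAT, 5242 and 4216 CPM in EWAT and 7767 and 6295 CPM in NWAT, with the NWAT libraries above the rest. It was lower in EWAT than in NWAT by -0.57 ± 0.16 (edgeR adjusted p = 0.0181), a call lost without EWAT replicate 2 (-0.43) or NWAT replicate 1 (-0.41) and in limma with no filter (adjusted p = 0.0763). The Fbn1 value of -0.40 ± 0.16 for SWAT against NWAT was not called (edgeR adjusted p = 0.0996), but it was under DESeq2 (adjusted p = 0.0416), with library totals (-0.59) and in limma on log2(FPKM + 1) (adjusted p = 0.0311). The joint call of Fbn1 was lost without EWAT replicate 2 or NWAT replicate 1 and in limma with no filter (adjusted p = 0.0531). Tnc, named after its values were seen, was also called in the joint test (edgeR adjusted p = 0.00657). It stood at 5.87 and 13.4 CPM in SWAT and 1.21 to 3.10 CPM elsewhere.

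Hyaluronidase transcripts were low and showed no call. Hyal1, the lysosomal enzyme, stood at 8.72 and 9.02 CPM in SWAT, 8.13 and 7.41 CPM in EWAT and 7.01 and 7.96 CPM in NWAT. Both SWAT libraries were the highest, by a margin within the error of the test (edgeR adjusted p = 0.358 in the joint test). Hyal1 shares 1920 exon bases with Naa80 and 159 with Hyal3 on its own strand, so its counts may hold reads of both. Hyal2, the membrane-anchored enzyme, stood at 6.96 and 8.28 CPM in SWAT, 7.89 and 11.0 CPM in EWAT and 8.64 and 8.83 CPM in NWAT, with overlap between the depots (edgeR adjusted p = 0.351 in the joint test). Its difference between SWAT and EWAT, -0.31 ± 0.18, was called when EWAT replicate 1 was left out (-0.53, edgeR adjusted p = 0.0263) and with scaling by library totals alone (-0.55, 0.0374).

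Of 5 other tested genes of hyaluronan breakdown, 2 were called in the joint test, beside 41.7% of all genes, both lysosomal exoglycosidases. Hexa, a hexosaminidase subunit, was higher in SWAT, at 196 and 197 CPM, than in EWAT (125 and 132 CPM) and NWAT (124 and 127 CPM). The 2 SWAT libraries lay above all others, by log2 fold changes of 0.61 ± 0.10 and 0.64 ± 0.10 (SE; edgeR adjusted p = 5.99e-04 and 7.78e-04). Gusb, which codes for beta-glucuronidase, was lowest in NWAT, at 57.8 and 53.4 CPM against 81.4 and 73.0 CPM in SWAT and 67.4 and 74.5 CPM in EWAT (edgeR adjusted p = 0.00860 and 0.0292). Both calls, and the joint call (edgeR adjusted p = 0.107), were lost without NWAT replicate 2. That between SWAT and NWAT was also lost with library totals (edgeR adjusted p = 0.0656), in the limma fits (0.0712 to 0.111) and, with the joint call, without SWAT replicate 1 (edgeR adjusted p = 0.102 and 0.0529), and that between EWAT and NWAT without EWAT replicate 2 or NWAT replicate 1 (0.0968 and 0.0881). Cemip, a hyaluronan-depolymerising protein named after its values were seen, was at or under 0.187 CPM.

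Prg4 showed the largest difference between depots of the members with more than a few counts. It stood at 81.8 and 169 CPM in SWAT, 6.91 and 5.08 CPM in EWAT and 7.01 and 8.35 CPM in NWAT. Both SWAT libraries lay far above the rest but were not alike, with 1492 and 3197 counts, and the EWAT libraries lay just below those of NWAT. Prg4 was higher in SWAT than in EWAT by 4.39 ± 0.45 (log2 ± SE; edgeR adjusted p = 0.00191), or 20.9-fold, and than in NWAT by 4.03 ± 0.44 (edgeR adjusted p = 0.00413), or 16.3-fold. Between EWAT and NWAT the value was -0.36 ± 0.49 (edgeR adjusted p = 0.643).

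With SWAT replicate 2 left out, the Prg4 difference from EWAT was 3.77 and that from NWAT 3.42, and both were called. Without EWAT replicate 1 or 2 the difference from EWAT was 4.62 and 4.19 and no longer called (edgeR adjusted p = 0.0589 and 0.0885), and the same held against NWAT (0.0628 and 0.0639). The gene lies on the minus strand of chromosome 1, at 150449412 to 150466165, and 204 of its exon bases overlap Tpr on the other strand. Synovial lining and joint markers, 6 in all, summed to 10.9 and 12.7 CPM in SWAT and 16.2 to 22.1 CPM elsewhere. Of its cartilage genes, Col2a1 and Comp were at or under 0.243 CPM in every library, and Chad stood at 0.494 and 0.897 CPM in SWAT against at most 0.234 CPM elsewhere. Their part in the Prg4 difference was not tested.

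**Figure D4:**
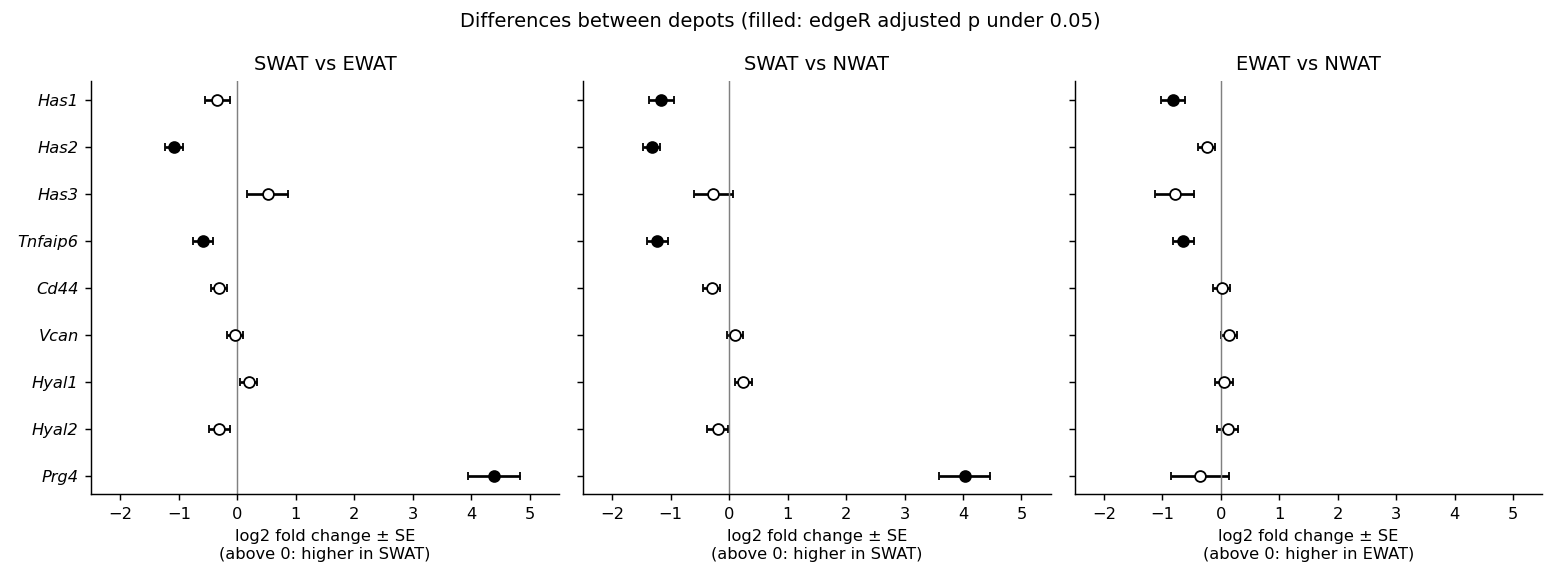
Log2 fold change (horizontal axes, points with SE bars) of 9 of the 10 genes (vertical axis) for the 3 pairs of depots, named above the panels; filled points had an edgeR adjusted p under 0.05. Prg4 lies at 4.39 and 4.03 in the SWAT pairs, Has2 and Tnfaip6 lie left of 0 in both, and Hapln1 is not drawn because SWAT held 0 and 1 counts of it.

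The genes whose profile over the 6 libraries was nearest to that of each member were found by Euclidean distance between log2 CPM values centred on their mean. Nearest to Prg4 were Itga7 (distance 0.931), Abcc9 (1.19) and C4b (1.32), each higher in both SWAT libraries than in the other 4. Abcc9, for one, stood at 81.0 and 113 CPM in SWAT and 2.91 to 5.84 CPM elsewhere. Nearest to Has1 were Tnfrsf21 (0.360), Chst1 (0.397) and Lgr4 (0.400), and nearest to Has2 were Flvcr2 (0.292), Fam174b (0.360) and Ccrl2 (0.362). Tnfaip6 lay nearest to Efcc1 (0.339), Gas7 (0.360) and Lrrc32 (0.403), and Hapln1 nearest to Star (0.473), Dpyd (0.480) and Nectin2 (0.494). For the members that were not called, the nearest gene was closer: Tmem33 (0.0899) for Cd44, Zdhhc24 (0.0549) for Vcan, Ythdf1 (0.0932) for Hyal1, Gins4 (0.115) for Hyal2 and Tnfsf9 (0.204) for Has3. Profiles were centred but not scaled, so a flatter profile lies nearer to other flat ones by construction, and the smaller distances say nothing particular about these members.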

How the data were processed

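Bulk RNA was sequenced from sorted adipose-derived stem cells of 3 depots, 2 libraries each. The authors deposited estimated counts per gene symbol, not normalized and 31.7% to 33.1% not whole, and FPKM values per gene symbol, both per the file headers and the values. The submitters' processing notes name the build GRCm38.p6 and, with no role, Seurat and Cell Ranger. No source used here gives the aligner, counter, annotation, library kit or strand setting. In each of the tables, 2 value columns matched no label and were left out, and the mesenteric depot is not analysed here. Columns were matched by depot letter and replicate number.

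Estimated counts were rounded and fitted in edgeR 4.0.16 (R 4.3.3) with TMM factors of 0.893 to 1.08 and filterByExpr (count minimum 10, total minimum 15), leaving 13694 genes. The quasi-likelihood model had 1 coefficient per depot over 6 libraries and 3 residual degrees of freedom, with a common biological coefficient of variation of 0.0979. P-values were Benjamini-Hochberg adjusted over all genes tested. Each SE is the size of the log2 fold change over the root of its F statistic. The script was tested on simulated data. Hapln1 ratios carry exact conditional binomial intervals at 95%. The 10 members were read by symbol, and the members, lists and rules were chosen with earlier results of these data known. Named genes are all members, up to 4 genes per pathway list called in the joint test with the largest span of depot means among those averaging 2 or more in log2 CPM, and the 3 nearest profiles per member. Alternatives were DESeq2 1.42.0, RLE factors, library totals, other filters, a replicate block, limma 3.58.1 on log2(FPKM + 1) and log2(FPKM + 0.1), and each library left out in turn.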

Additional observations from a re-analysis of the deposited data

How the results depend on the processing

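Of 576 values of the 10 genes under alternatives, over 40 results, 499 kept their direction and their side of the threshold, 33 lost a call, 27 gained one and 17 changed sign. The same was so for 1051 of 1140 values of named pathway genes, with 24 changes of sign. Every change of sign was in a difference without a call, and the cause of none was tested. With 2 libraries per depot, leaving 1 out gives fits in which the lone library is assumed to vary like the other depots, and the number of libraries limits every call near the threshold. Counts under about 40 limit Has3 and Hapln1.

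With a library left out in turn, the number of the 10 genes called ran from 3 to 6 in the joint test, from 2 to 4 between SWAT and EWAT, from 2 to 5 between SWAT and NWAT and from 0 to 2 between EWAT and NWAT, and 17 to 28 pathway genes were called in the last pair. Scaling by library totals, and limma on log2(FPKM + 1) or log2(FPKM + 0.1), each called 7 members between SWAT and EWAT. By counts in place of per-length levels, Has1 made up 80.2% of the synthases in SWAT, 71.7% in EWAT and 79.1% in NWAT. Hapln1 and Has3 did not pass the FPKM filter or the minimum of 50 counts and so have no value there.

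For SWAT against EWAT, log2 fold changes without 1 library ran from -0.79 to 0.0055 for Has1, -0.19 to 0.15 for Vcan and -0.21 to 0.17 for Ugdh. For SWAT against NWAT, Gnpnat1 ran from -0.20 to 0.028 and Adamts15 from -0.12 to 0.18. For EWAT against NWAT the ranges were -0.19 to 0.25 for Cd44, -0.044 to 0.30 for Vcan, -0.034 to 0.15 for Hyal1, -0.15 to 0.34 for Hyal2 and -0.015 to 0.077 for Hexa. For Ugdh in SWAT against EWAT, DESeq2 and RLE factors both gave 0.0012.

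With library totals, and then limma on log2(FPKM + 1) with or without the filter and on log2(FPKM + 0.1), the signs of differences of 6 genes changed. Vcan gave -0.092, -0.16 and -0.16 and Adamts15 -0.15, -0.14 and -0.15 for SWAT against NWAT. For SWAT against EWAT, Hyal1 gave -0.044, -0.032 and -0.039, Gusb -0.12, -0.11 and -0.12, Eln -0.080, -0.077 and -0.078, and Fbn1 -0.064, -0.060 and -0.061.

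Whether replicate numbers pair the samples is not stated, and the main fit treated them as unpaired. The correlation of same-numbered deviations from the depot means was 0.000549 for SWAT and EWAT, 0.0375 for SWAT and NWAT and 0.11 for EWAT and NWAT. With 2 libraries per depot, these values cannot show whether same-numbered libraries shared an animal or a batch. With the replicate number as a block, 5 members were called in the joint test, 4 in each SWAT pair and 2 between EWAT and NWAT, where Hapln1 was lost (edgeR adjusted p = 0.0570). Of the named pathway genes, Fbn1 between SWAT and NWAT gained a call (edgeR adjusted p = 0.0163), and no other call of a named gene changed.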
